A study of Mus musculus with 18 samples.

Results

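The forkhead (FOX) genes were followed in bulk RNA sequencing of 10T1/2 cells, a mouse mesenchymal stem cell line that can be driven toward fat or toward a myofibroblast state. Members were all genes of the deposited table whose symbol is Fox, a subfamily letter from a to s and a number, which gave 44 genes of 54532. The cells were WT or carried the label FOXS1 KO (clone 1 or clone 2), and each genotype was left uninduced or was stimulated, first with TGF-β1 at 1 nM over 12 h and then over 48 h with DMII. DMII is an adipogenic cocktail that holds insulin and indomethacin beside dexamethasone and the phosphodiesterase inhibitor 3-isobutyl-1-methylxanthine. There were 3 libraries in each of the 6 groups. Each KO clone grew from a single cell after CRISPR-Cas9 with guides to the single Foxs1 exon, so clone 1 and clone 2 each stand for 1 line, and a clone's own features cannot be told apart from the effect of its edit. The labels do not say whether the 3 libraries of a group came from separate cultures, so p-values measure only the spread between these libraries. Uninduced and stimulated cells differ in both TGF-β1 and DMII, and the effects of these cannot be told apart.

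Forkhead proteins share a winged-helix DNA-binding domain and are grouped into lettered subfamilies by the similarity of that domain. Many of them pattern mesenchyme: FOXC, FOXD, FOXF and FOXL proteins act in mesoderm, kidney stroma and the mesenchyme of gut and lung. FOXO proteins are phosphorylated by AKT and leave the nucleus when insulin signals, FOXM1 drives mitotic genes, and FOXK and FOXP proteins act largely as repressors. FOXC2, FOXO1 and FOXA2 are known from fat and its metabolism.

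The libraries held 15576685 to 42005596 counts, and forkhead genes took 1105 to 1655 CPM of them, where CPM is the count of a gene relative to a TMM-scaled library size. All 10 mesenchymal markers were measured, with summed levels of 34308 to 79934 CPM. Among them Pdgfra, a receptor of mesenchymal progenitors, was lower in both clones (log2 -1.60 and -1.26 uninduced, -1.24 and -1.28 stimulated), and Thy1 was called higher in clone 1 and lower in clone 2 under both treatments. By contrast, no gene of the skeletal muscle list had enough counts to test. Of 5 adipocyte markers, Lep and Retn had no count, and the summed level was 14.1 to 17.9 CPM in stimulated clone 1, 0.601 to 1.18 CPM in stimulated clone 2 and 0 to 0.180 CPM in stimulated WT. Uninduced, the sum was 0 to 1.18 CPM in WT, 0.322 to 1.09 CPM in clone 1 and 0.930 to 1.12 CPM in clone 2. The endothelial list summed to 5.03 to 7.92 CPM in uninduced WT and to under 1 CPM in the other groups, led by Tek. The haematopoietic list stayed at or below 1.45 CPM and the epithelial list at or below 3.52 CPM. The part of these markers in the forkhead values was not tested.

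Foxs1, the gene targeted in the clones (chromosome 2, 152931898 to 152933208 of GRCm38, minus strand, 1 exon of 1311 bases), was compared with its 43 paralogs in the coding sequences of GENCODE M21. By local alignment score the nearest were Foxc1, with 78.4% identity over 292 aligned bases, Foxc2, with 77.0% over 292 bases, and Foxl1, with 77.4% over 265 bases. Stretches of 90 bases were taken in the reading frame, without gaps in the alignments to Foxc1, Foxc2 and Foxl1. The one in which Foxs1 and both Foxc genes were most alike lies in the forkhead domain. It is shown because a rise of a close paralog is where a substitution for FOXS1 would be looked for. It spans chr2:152932862-152932951 in Foxs1 (minus strand), chr13:31807568-31807657 in Foxc1 and chr8:121116954-121117043 in Foxc2 (plus strand both), and capitals mark bases that differ from Foxs1.
Foxs1: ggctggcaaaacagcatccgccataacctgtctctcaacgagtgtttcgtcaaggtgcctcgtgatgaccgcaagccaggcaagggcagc
Foxc1: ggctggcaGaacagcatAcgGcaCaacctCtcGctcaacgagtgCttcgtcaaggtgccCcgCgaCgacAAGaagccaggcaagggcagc
Foxc2: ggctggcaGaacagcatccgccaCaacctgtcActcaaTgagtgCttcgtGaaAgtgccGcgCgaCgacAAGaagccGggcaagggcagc
Foxc1 differed from Foxs1 at 13 of these 90 bases, and Foxc2 at 14. The longest run of identical bases shared by Foxs1 and any paralog was 26 bases, against reads of 150 bp.

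Of the 44 members, 24 had enough counts to be tested, 8 had counts below the filter and 12 had no count in any library. The 12 without a count were Foxb1, Foxb2, Foxd3, Foxd4, Foxe1, Foxe3, Foxi1, Foxi2, Foxi3, Foxn4, Foxr1 and Foxr2. Among the 8 below the filter, Foxj1, a regulator of motile cilia, had 94 counts over all libraries, and Foxl2, the ovarian forkhead, had 64. Foxh1, a SMAD partner in nodal signalling, had 21, Foxa1 18, Foxa3 17, Foxn1 7, Foxp3 5 and Foxa2 2, the FOXA genes being pioneer factors of endoderm. Foxl2 counts came almost wholly from WT: 26 in uninduced and 36 in stimulated WT, against 0 in both groups of clone 1, 2 in uninduced and 0 in stimulated clone 2. With a floor of 3 counts over a group, Foxl2 was at least 7.97-fold lower in uninduced clone 1, at least 12.4-fold lower in stimulated clone 1 and at least 9.08-fold lower in stimulated clone 2 than in WT, counting error only. WT uninduced replicate 1 also had no Foxl2 count, so that 2 of 3 libraries carried the uninduced WT level.

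Levels were compared between genes as CPM per kb of gene length. Differences in a gene's level in bulk RNA do not tell fewer expressing cells from less RNA per cell. Averaged over the 6 groups, Foxc1, a regulator of mesenchymal and eye development, led with 31.7 CPM per kb, and its group means lay between 28.6 and 36.2 CPM per kb. Foxd1, known from the stroma of the developing kidney, had group means of 11.4 to 37.5 CPM per kb, Foxc2 8.41 to 36.6, Foxk2 12.9 to 28.0 and Foxo3 11.7 to 32.3. The lowest of the tested genes were Foxl1, at 0.140 to 0.903 CPM per kb, Foxq1, at 0.00914 to 0.725, and Foxp2, at 0 to 0.115. Foxs1 ranked 21 of 24 in uninduced WT, at 1.70 CPM per kb, and 20 in stimulated WT, at 1.91. It ranked 2 in uninduced clone 1 (19.6), 1 in stimulated clone 1 (41.5), and 4 in clone 2 under either treatment (17.3 and 30.4). The means of Foxd1 (37.5 ± 1.63 CPM per kb, SD) and Foxc1 (36.2 ± 1.23) in stimulated clone 1 differed by less than their spread. The same held for Foxs1 and Foxk2 (18.7 ± 1.00) in uninduced clone 1, and for Foxs1 (30.4 ± 1.98), Foxc1 (31.6 ± 1.02) and Foxo3 (32.3 ± 2.45) in stimulated clone 2.

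**Figure D1:**
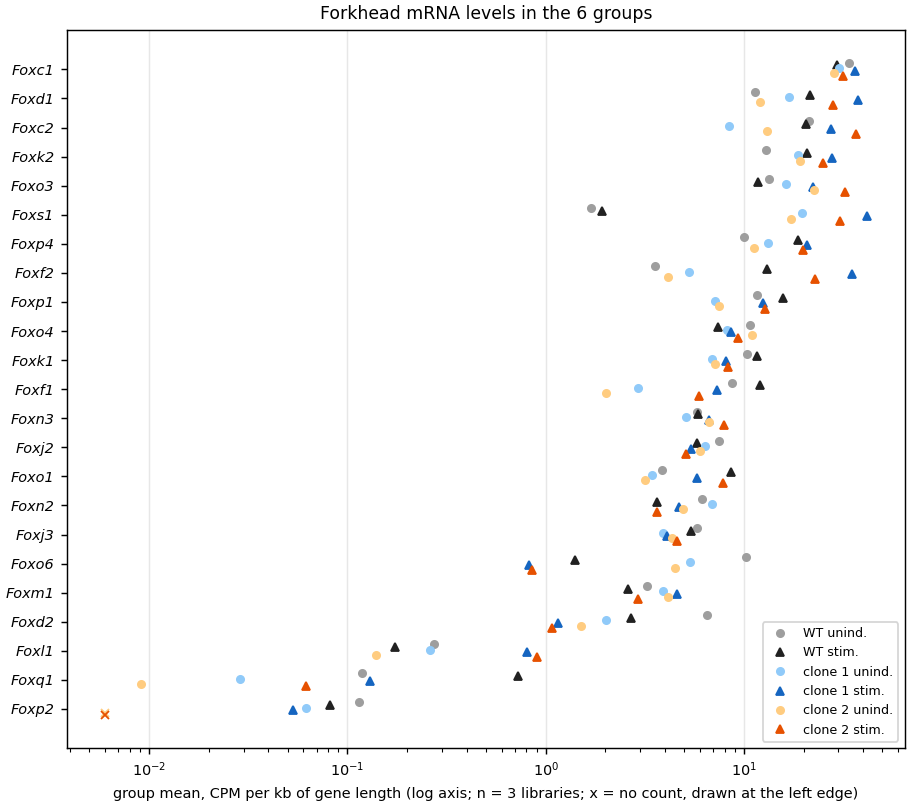
Group mean levels of 23 of the 24 tested forkhead genes in CPM per kb of gene length (log axis, 3 libraries per group), ordered by the mean over the 6 groups. Circles are uninduced and triangles stimulated cells, grey and black for WT, blue for clone 1 and orange for clone 2. Foxs1 lies near 2 CPM per kb in WT and between 17.3 and 41.5 in the clones, while Foxc1 stays between 28.6 and 36.2.

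Foxs1 is the gene targeted in the clones, and its RNA was higher in the libraries labelled FOXS1 KO than in WT. Uninduced WT had 1.81, 3.25 and 1.64 CPM and stimulated WT 3.13, 2.55 and 1.85 CPM. Uninduced clone 1 had 26.7, 27.1 and 23.4 CPM, uninduced clone 2 21.1, 22.9 and 23.9 CPM, stimulated clone 1 53.6, 52.9 and 56.8 CPM, and stimulated clone 2 38.8, 38.0 and 42.8 CPM. Every library of either clone was above every WT library. The log2 fold change against WT was 3.55 ± 0.16 (SE, adjusted p = 2.39e-17) in uninduced clone 1 and 3.36 ± 0.16 (7.65e-17) in uninduced clone 2. In stimulated cells it was 4.44 ± 0.15 (1.43e-20) in clone 1 and 3.99 ± 0.15 (2.81e-19) in clone 2, which are 21.8-fold and 15.9-fold. Adjusted p-values here and below come from the quasi-likelihood test of edgeR, adjusted by Benjamini-Hochberg over 14317 genes. A count over the whole gene does not show a small insertion or deletion, so these totals show neither the edit nor its absence. The study reports a disrupted locus by genomic DNA sequencing and a loss of FOXS1 protein in both clones by western blot. Neither measurement is analysed here. Every direction below is one of the libraries labelled FOXS1 KO against WT.

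Foxs1 also responded differently to stimulation. In WT the change was 0.19 ± 0.21 on the log2 scale (adjusted p = 0.453, edgeR), with the 2 groups overlapping. In clone 1 it was 1.08 ± 0.12 (3.54e-09) and in clone 2 0.82 ± 0.12 (6.16e-07), the latter below the fold threshold. The difference in response was 0.89 ± 0.24 (adjusted p = 0.00453) for clone 1 minus WT and 0.64 ± 0.24 (0.0442) for clone 2 minus WT, neither past a log2 difference of 1. The clone 1 difference was past 1 without WT uninduced replicate 3 (1.12) and without WT stimulated replicate 1 (1.08).

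**Figure D2:**
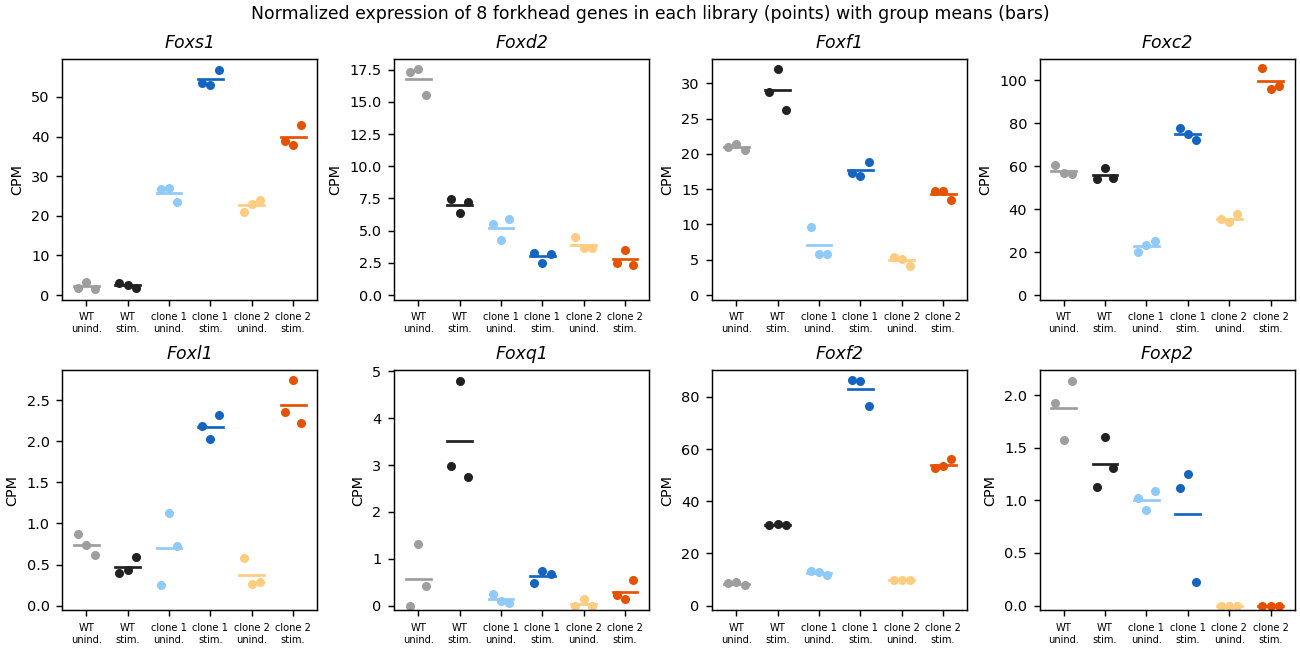
Normalized expression (CPM, linear axes) of Foxs1, Foxd2, Foxf1, Foxc2, Foxl1, Foxq1, Foxf2 and Foxp2 in each of the 18 libraries, as points, with group means as bars. Foxs1 is below 3.3 CPM in the WT libraries and above 21 CPM in those of the clones, Foxd2 is highest in uninduced WT, and Foxp2 is 0 in the 6 libraries of clone 2.

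A member was called where its adjusted p was below 0.05 and its absolute log2 fold change above 1, the thresholds of the study. In uninduced cells, 4 of 24 members were called in clone 1 against WT, where 15.1% of all tested genes were called, and 6 of 24 in clone 2, where 15.1% were called as well. In clone 1, 1 was higher (6.32% of all genes) and 3 were lower (8.73%), and in clone 2, 1 was higher (5.54%) and 5 were lower (9.56%). Foxs1 was the member called higher in both clones (background for higher in both, 3.28%). Foxd2 and Foxf1 were called lower in both (5.78%). Since 1 set of WT libraries served for both clones, a direction shared by the clones is not independent evidence. No paralog was called higher in either clone in uninduced cells. Of members called in 1 clone, Foxc2 was lower in clone 1 and Foxo6, Foxp2 and Foxq1 were lower in clone 2.

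Foxd2, which acts in paraxial mesoderm and kidney (chromosome 4, 114906282 to 114908873, minus strand), was at 17.3, 17.6 and 15.5 CPM in uninduced WT. It was at 5.53, 4.29 and 5.90 CPM in uninduced clone 1 and at 4.48, 3.63 and 3.65 CPM in uninduced clone 2. The groups did not overlap, and the log2 fold change was -1.68 ± 0.17 (adjusted p = 6.85e-10) in clone 1 and -2.07 ± 0.17 (7.63e-12) in clone 2 by edgeR. Stimulated WT had 7.43, 6.39 and 7.21 CPM, stimulated clone 1 3.30, 2.51 and 3.19 CPM and stimulated clone 2 2.52, 3.53 and 2.35 CPM. Foxd2 was again lower in the clones, by -1.23 ± 0.18 (adjusted p = 6.87e-07) in clone 1 and -1.33 ± 0.19 (4.86e-07) in clone 2. Foxd2 was the paralog called lower in both clones under both treatments.

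Foxf1, a Hedgehog-responsive factor of lung and gut mesenchyme (chromosome 8, 121084386 to 121088144, plus strand), had 20.5 to 21.4 CPM in the 3 uninduced WT libraries. Uninduced clone 1 had 9.63, 5.85 and 5.75 CPM and uninduced clone 2 5.42, 5.09 and 4.17 CPM, all below WT. The log2 fold changes were -1.56 ± 0.14 (adjusted p = 1.06e-10, edgeR) and -2.07 ± 0.14 (2.45e-13). After stimulation WT had 28.8, 32.0 and 26.2 CPM, clone 1 17.3, 16.8 and 18.9 CPM and clone 2 14.7, 14.7 and 13.5 CPM. The groups stayed apart, at -0.72 ± 0.13 (adjusted p = 1.46e-05), below the fold threshold, in clone 1 and -1.02 ± 0.13 (9.24e-08) in clone 2, just past it. Without WT stimulated replicate 2 the clone 2 value was -0.94 and without clone 2 stimulated replicate 3 it was -0.98, no longer past the threshold.

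Foxc2, known for mesenchymal and lymphatic development and for its action in fat (chromosome 8, 121116171 to 121118895, plus strand), had 60.5, 56.7 and 56.3 CPM in uninduced WT. Uninduced clone 1 was lower, at 20.2, 23.2 and 25.3 CPM, and uninduced clone 2 lay between, at 35.2, 34.1 and 37.5 CPM. In stimulated cells WT was the lowest, with clone 2 again above clone 1: WT had 53.9, 59.3 and 54.2 CPM, clone 1 77.8, 74.9 and 72.0 CPM and clone 2 106, 96.0 and 97.3 CPM. The log2 fold change against WT went from -1.33 ± 0.08 (adjusted p = 2.55e-15, edgeR) uninduced to 0.42 ± 0.07 (4.54e-06) stimulated in clone 1, and from -0.70 ± 0.07 (1.14e-09) to 0.83 ± 0.07 (1.19e-11) in clone 2. Both stimulated values were below the fold threshold.

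In stimulated cells, 5 of 24 members were called in clone 1, where 19% of all genes were called, and 7 of 24 in clone 2, where 16.9% were. In clone 1, 3 were higher (9.42%) and 2 lower (9.6%), and in clone 2, 3 were higher (7.95%) and 4 lower (8.94%). Foxs1 and Foxl1 were called higher in both clones (background 5.26%), and Foxd2 and Foxq1 lower in both (5.77%). Foxf2 was called higher in clone 1 alone and Foxo3 in clone 2 alone, and each had an adjusted p below 0.05 in the same direction in the other clone. Foxf1 and Foxp2 were called lower in clone 2.

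Foxl1, a marker of signalling mesenchymal cells under the gut epithelium and among the 3 nearest paralogs of Foxs1 (chromosome 8, 121127940 to 121130644, plus strand), was scarce, with 421 counts over all libraries. Stimulated WT had 0.391, 0.432 and 0.586 CPM, stimulated clone 1 2.18, 2.03 and 2.32 CPM and stimulated clone 2 2.35, 2.75 and 2.22 CPM. The groups did not overlap, and Foxl1 was 4.58-fold higher in clone 1 (log2 2.20 ± 0.44, adjusted p = 8.99e-05, edgeR) and 5.13-fold higher in clone 2 (2.36 ± 0.45, 4.30e-05). In uninduced cells WT had 0.874, 0.734 and 0.610 CPM, clone 1 0.256, 1.13 and 0.725 CPM and clone 2 0.580, 0.266 and 0.290 CPM. There the log2 fold changes of -0.06 ± 0.47 (adjusted p = 0.924) and -0.84 ± 0.47 (0.141) did not pass the test.

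Foxq1, known from hair development and epithelial plasticity (chromosome 13, 31556134 to 31560976, plus strand), had 2.98, 4.79 and 2.75 CPM in stimulated WT. Stimulated clone 1 had 0.479, 0.737 and 0.683 CPM and stimulated clone 2 0.224, 0.131 and 0.541 CPM, both below every stimulated WT library. The log2 fold changes were -2.45 ± 0.63 (adjusted p = 0.00163, edgeR) and -3.52 ± 0.72 (0.000157). Uninduced WT was uneven, at 0, 1.31 and 0.419 CPM, against 0.256, 0.107 and 0.0518 CPM in clone 1 and 0, 0.133 and 0 CPM in clone 2. Clone 1 did not pass the edgeR test there (-2.01 ± 0.89, adjusted p = 0.0587), but was called with DESeq2 and with no filter beyond 1 count. Clone 2, with 3 counts in all against 36 in WT, was called (adjusted p = 0.00318), but the groups overlapped, the call was lost without WT uninduced replicate 2 (adjusted p = 0.0573), and the ratio of WT to clone 2 was 16.3 with a 95% counting interval of 5.14 to 82.5. Of the exonic bases of Foxq1, 66.1% lie under A530084C06Rik on the opposite strand, which had no count. The strand setting of the counting is not given in the sources used here.

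Foxf2, the paralog of Foxf1 (chromosome 13, 31625816 to 31631403, plus strand), moved the other way. Stimulated WT had 30.8, 31.1 and 30.8 CPM, stimulated clone 1 86.5, 86.2 and 76.7 CPM and stimulated clone 2 52.7, 53.4 and 56.0 CPM. Foxf2 was thus 2.69-fold higher in clone 1 (log2 1.43 ± 0.07, adjusted p = 2.70e-16, edgeR), and in clone 2 the log2 fold change was 0.81 ± 0.08 (2.11e-10). Foxo3 had group means of 88.7 ± 5.81 CPM (SD, n = 3) in stimulated WT, 169 ± 7.63 in clone 1 and 245 ± 18.6 in clone 2. Its log2 fold change was 0.93 ± 0.06 (adjusted p = 2.03e-14) in clone 1, under the threshold, and 1.46 ± 0.06 (4.09e-19) in clone 2.

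**Figure D3:**
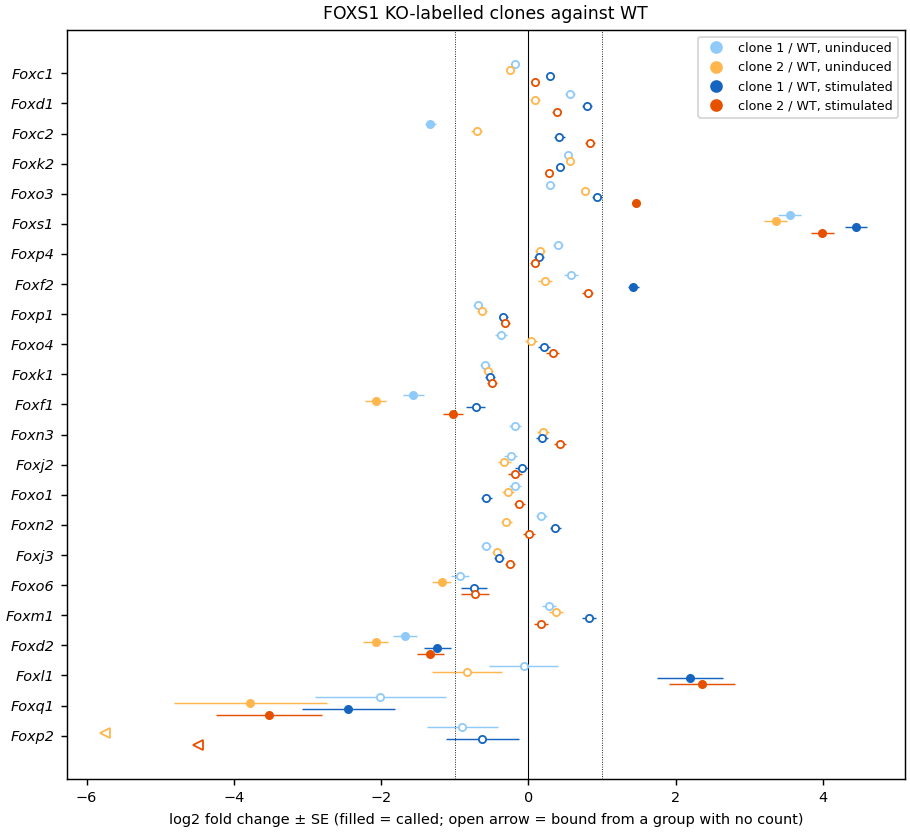
Log2 fold change against WT with its SE for 23 of the 24 tested forkhead genes, in uninduced (light) and stimulated (dark) cells of clone 1 (blue) and clone 2 (orange). Filled points are called, dotted lines mark a log2 fold change of 1 in either direction, and open arrows give the bound for Foxp2, which had no count in clone 2. Foxs1 lies between 3.36 and 4.44, Foxd2 lies left of the lower line in each comparison, and Foxl1 lies right of the upper line in stimulated cells only.

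The question of compensation concerns paralogs that are higher in the clones than in WT. Of the 23 tested paralogs, none was called higher in both clones in uninduced cells, beside 3.28% of all tested genes. In stimulated cells Foxl1 was the only one, beside 5.26%, so both counts are near the share of all genes. Of the other near paralogs, Foxc1 was at -0.18 ± 0.05 (adjusted p = 0.00272, edgeR) and -0.25 ± 0.05 (5.73e-05) in uninduced clones 1 and 2, and at 0.29 ± 0.05 (7.15e-06) and 0.09 ± 0.05 (0.107) in stimulated ones. Its group means were 199 ± 4.56 CPM in uninduced WT and 173 ± 5.04 CPM in stimulated WT. With no fold threshold, 7 members including Foxs1 were higher in both clones in uninduced cells (background 16.9%), among them Foxf2, Foxk2, Foxm1, Foxo3 and Foxp4. In stimulated cells 9 were (18.6%): Foxc2, Foxd1, Foxf2, Foxk2, Foxl1, Foxn3, Foxo3, Foxo4 and Foxs1. By the same measure 9 members were lower in both clones in uninduced cells (17.4%) and 7 in stimulated cells (19.7%). The median log2 fold change of the 24 members was -0.18 and -0.29 in uninduced clones 1 and 2 and 0.17 and 0.09 in stimulated ones, against -0.01 to -0.02 for all tested genes in these 4 comparisons. Without Foxs1, forkhead genes summed to 1185 ± 14.8 CPM (SD, n = 3) in uninduced WT, 1089 ± 12.1 in clone 1 and 1101 ± 16.3 in clone 2. In stimulated cells the sums were 1339 ± 51.1, 1559 ± 37.5 and 1560 ± 3.73 CPM. An exact permutation test of 3 against 3 libraries cannot go below 0.10, and none was run on these sums.

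The second question was how forkhead genes responded to TGF-β1 followed by DMII. In WT 5 of 24 members were called (background 19.9%): Foxf2, Foxq1 and Foxo1 rose (6.25% of all genes), and Foxo6 and Foxd2 fell (13.6%). In clone 1 8 of 24 were called (16.7%) and in clone 2 8 of 24 (17.7%). Of these, 7 rose and 1 fell in clone 1 (5.95% and 10.7%), and 7 rose and 1 fell in clone 2 (6.46% and 11.2%). Foxc2, Foxd1, Foxf1, Foxf2, Foxl1 and Foxq1 rose and Foxo6 fell in both clones, while Foxs1 was called in clone 1 and Foxo1 in clone 2. Foxo6, an AKT-regulated FOXO known mainly from brain, fell from 26.7 ± 1.70 CPM (SD, n = 3) to 3.66 ± 0.186 CPM in WT, a log2 change of -2.87 ± 0.14 (adjusted p = 8.86e-17, edgeR), from 14.1 ± 0.851 to 2.17 ± 0.361 CPM in clone 1 (-2.68 ± 0.16) and from 11.7 ± 2.09 to 2.22 ± 0.278 CPM in clone 2 (-2.41 ± 0.16). Foxf2 rose in each genotype, from 8.46 ± 0.672 to 30.9 ± 0.209 CPM in WT (1.88 ± 0.09, 1.39e-17), from 12.6 ± 0.895 to 83.1 ± 5.58 CPM in clone 1 (2.73 ± 0.08) and from 9.82 ± 0.0828 to 54.0 ± 1.79 CPM in clone 2 (2.46 ± 0.08). Foxo1, an insulin-regulated factor that holds back adipocyte maturation, rose from 33.6 ± 3.71 to 74.4 ± 7.18 CPM in WT (1.15 ± 0.08, adjusted p = 9.17e-14) and from 27.6 ± 1.40 to 68.2 ± 1.43 CPM in clone 2 (1.30 ± 0.08), and went from 29.7 ± 0.760 to 50.1 ± 2.21 CPM in clone 1 (0.76 ± 0.08), under the threshold. Foxd1 went from 57.5 ± 6.36 to 109 ± 2.63 CPM in WT (0.93 ± 0.07), also under it, and rose by 1.16 ± 0.07 and 1.22 ± 0.07 on the log2 scale in clones 1 and 2. Foxq1 rose in WT by 2.59 ± 0.65 (adjusted p = 0.00112). The Foxq1 calls in clone 1 (0.0385) and clone 2 (0.0404) were each lost when any 1 of 4 of the 6 libraries compared was left out, with adjusted p of 0.0721 to 0.134 and 0.0515 to 0.215, and the clone 2 groups overlapped. Foxd2 fell by 1.26 ± 0.16 in WT on the log2 scale, and its changes of -0.82 ± 0.18 and -0.51 ± 0.19 in clones 1 and 2 were under the threshold.

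The difference in response between genotypes was tested as such. It passed both thresholds for 2 members in clone 1 minus WT, Foxc2 and Foxl1 (8.81% of all genes), and for 3 in clone 2 minus WT, Foxc2, Foxl1 and Foxf1 (7.85%). For Foxc2 the change was -0.05 ± 0.07 in WT (adjusted p = 0.567, edgeR), 1.71 ± 0.07 in clone 1 and 1.49 ± 0.07 in clone 2, so that the response was higher by 1.76 ± 0.10 (1.39e-14) and 1.54 ± 0.10 (1.89e-13) on the log2 scale. For Foxl1 the change was -0.63 ± 0.48 in WT (adjusted p = 0.264), 1.63 ± 0.43 in clone 1 and 2.57 ± 0.44 in clone 2, and the differences were 2.26 ± 0.64 (0.00708) and 3.20 ± 0.65 (0.000273). For Foxf1 the change was 0.47 ± 0.13 in WT, 1.32 ± 0.14 in clone 1 and 1.52 ± 0.15 in clone 2, with differences of 0.85 ± 0.19 (adjusted p = 0.000753), under the threshold, and 1.05 ± 0.19 (7.55e-05). Without clone 1 uninduced replicate 1 the clone 1 difference was 1.14, past the threshold. The clone 2 value fell under the threshold without WT stimulated replicate 3 (0.98), without clone 2 uninduced replicate 3 (0.97) and with no filter beyond 1 count (0.98). In a test against a log2 difference of 1, neither it nor the clone 1 difference of Foxl1 passed (adjusted p = 1 and 0.170). With no fold threshold, 11 members had a higher response in clone 1 than in WT and 3 a lower one (15.9% and 15.7% of all genes), and 11 had a higher and 1 a lower one in clone 2 (15.9% and 15.3%). Those with a lower response included Foxo1 and Foxp4 in clone 1, and the 1 in clone 2 was Foxk2.

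**Figure D4:**
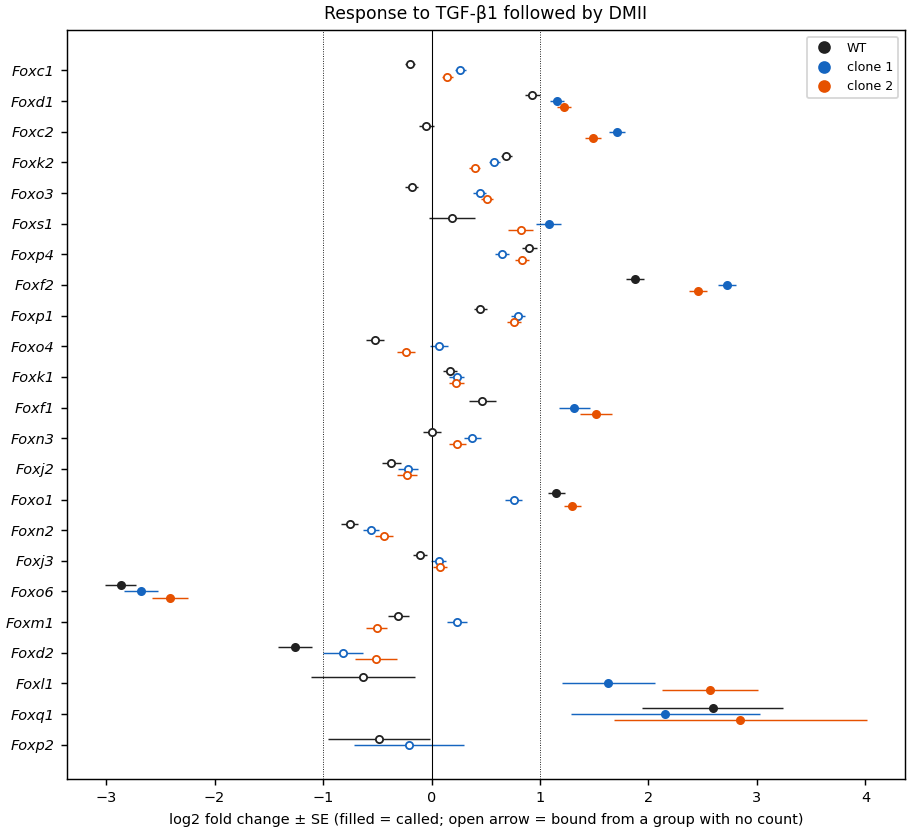
Log2 fold change with its SE from uninduced to stimulated cells for 23 of the 24 tested forkhead genes in WT (black), clone 1 (blue) and clone 2 (orange). Filled points are called and dotted lines mark a log2 change of 1 in either direction, and Foxp2 has no point for clone 2, where it had no count. Foxo6 lies between -2.87 and -2.41 and Foxf2 between 1.88 and 2.73 in the 3 genotypes, whereas Foxc2 and Foxl1 are right of the upper line in the clones and not in WT.

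The clones differed from each other in 1 member past both thresholds under either treatment, Foxp2 (8.67% of all genes called in uninduced and 9.98% in stimulated cells). Foxp2, the repressor known from speech circuits (chromosome 6, 14901349 to 15441977, plus strand), was scarce in WT, at 1.92, 1.57 and 2.13 CPM uninduced and 1.12, 1.60 and 1.31 CPM stimulated. Clone 1 had 1.02, 0.912 and 1.09 CPM uninduced and 1.12, 1.25 and 0.228 CPM stimulated. Clone 2 had no Foxp2 count in any of its 6 libraries. With a floor of 3 counts over each group, Foxp2 was at least 53.7-fold lower in uninduced clone 2 and at least 22.4-fold lower in stimulated clone 2 than in WT, and at least 28.5-fold and 14.7-fold lower than in clone 1 (counting error only). With no fold threshold, 7 members were higher and 4 lower in uninduced clone 1 than in clone 2 (21% and 21.2% of all genes), and 8 higher and 4 lower in stimulated cells (22.2% and 23.2%). Foxd1, Foxf2, Foxn2 and Foxp2 were higher in clone 1 under both treatments, and Foxc2, Foxn3 and Foxo3 were higher in clone 2.

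The 12 members called in none of the 11 comparisons included Foxc1, Foxj2, Foxj3, Foxk1, Foxk2, Foxm1, Foxn2, Foxn3, Foxo4, Foxp1 and Foxp4. The share of all tested genes called in none is not given here, so their number is not read as a trait of the family. Differences below the fold threshold were present among these members, some in 1 direction in both clones and others not. Foxk1 and Foxp1 were lower in both clones under both treatments: Foxk1 from 78.9 ± 7.37 CPM (SD, n = 3) in uninduced WT to 52.6 ± 3.35 in clone 1 and 54.0 ± 3.61 in clone 2, and Foxp1 from 159 ± 6.27 to 98.8 ± 0.872 and 103 ± 7.54. Foxk2, the close relative of Foxk1, was higher, at 67.7 ± 2.85 CPM in uninduced WT, 98.4 ± 5.26 in clone 1 and 100 ± 0.887 in clone 2. Foxj3 was lower in both clones as well, at 64.0 ± 1.62, 43.0 ± 2.24 and 47.4 ± 1.52 CPM in the same order. Foxp4 had 49.6 ± 2.80, 65.5 ± 3.17 and 55.3 ± 4.55 CPM there. Foxj2 had 40.1 ± 1.24, 33.9 ± 2.80 and 32.0 ± 1.12 CPM, Foxn2 45.1 ± 4.06, 50.8 ± 3.18 and 36.4 ± 2.00 CPM, Foxn3 67.0 ± 2.88, 59.0 ± 5.11 and 77.0 ± 1.82 CPM, and Foxo4 37.2 ± 4.28, 28.7 ± 1.18 and 38.3 ± 1.74 CPM.

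FOXO activity depends on phosphorylation by AKT and not on FOXO mRNA alone, so genes of that pathway were counted beside the FOXO genes. Of 18 tested FOXO targets of 20 listed, 5 were higher and 2 lower in stimulated clone 1 than in WT, and 5 were higher and none lower in stimulated clone 2. Of all tested genes, 9.42% were called higher and 9.6% lower in stimulated clone 1, and 7.95% and 8.94% in stimulated clone 2. The list's median log2 fold change was 0.43 and 0.51, against -0.02 and -0.01 for all tested genes. In uninduced cells 1 was higher and 2 lower in clone 1 (median -0.17) and 2 higher and 3 lower in clone 2 (median -0.10). By comparison, 6.32% of all tested genes were called higher and 8.73% lower in uninduced clone 1, and 5.54% and 9.56% in uninduced clone 2. Gadd45b and Pdk4 were the targets called lower in stimulated clone 1. In uninduced cells Klf15 and Pdk4 were called lower in both clones, and Ccng2 in clone 2. The targets called higher in both clones after stimulation were Cdkn1a, a cyclin-dependent kinase inhibitor, Sod2, the mitochondrial superoxide dismutase, and Irs2, an insulin receptor substrate. Cdkn1a was higher by 2.02 ± 0.06 and 2.20 ± 0.06 on the log2 scale in clones 1 and 2, Sod2 by 2.16 ± 0.06 and 1.90 ± 0.06, and Irs2 by 1.66 ± 0.09 and 1.29 ± 0.09. Uninduced, Irs2 was lower in both clones instead, at -0.98 ± 0.10 (adjusted p = 2.35e-09, edgeR) and -0.74 ± 0.09 (1.71e-07), while Cdkn1a (1.22 and 1.06) and Sod2 (0.84 and 0.30) were higher there too. Of the 13 genes of the AKT pathway upstream of FOXO, all tested and with Irs2 in this list as well, 3 were higher and 1 lower in stimulated clone 1 (median 0.21), beside 9.42% and 9.6% of all genes. In stimulated clone 2, 4 were higher and 1 lower (median 0.39), beside 7.95% and 8.94%. Uninduced, 1 was higher and 1 lower in clone 1 (median -0.10) and 1 higher and 0 lower in clone 2 (median 0.06). The uninduced shares of all genes are those given for the FOXO targets. In stimulated clones 1 and 2 Pik3r1, the regulatory subunit of PI3-kinase, was higher by 2.32 ± 0.10 and 1.58 ± 0.10. Sgk1, a kinase that also phosphorylates FOXO proteins, was higher there by 1.28 ± 0.06 and 1.94 ± 0.06. Igf1r, the IGF-1 receptor, was lower there, at -1.32 ± 0.07 and -1.20 ± 0.07. In uninduced clones 1 and 2 Sgk1 was lower, at -1.11 ± 0.06 (adjusted p = 1.12e-14, edgeR) and -0.99 ± 0.06 (7.76e-14), as was Igf1r (-0.91 and -0.57), whereas Pik3r1 was higher (1.96 and 1.10). In response to stimulation, FOXO targets gave 3 higher and 3 lower in WT, 6 and 0 in clone 1 and 6 and 1 in clone 2. The AKT list gave 2 and 0, 3 and 0, and 3 and 1. Of all tested genes, 6.25% were called higher and 13.6% lower in the WT response. In clone 1 these shares were 5.95% and 10.7%, and in clone 2 6.46% and 11.2%. The genes named here share the stimulated clone 1 and clone 2 libraries with the adipocyte markers given above, whose part in these values was not tested.

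Foxm1 and genes it is known to drive were counted next. Foxm1 had 14.4, 15.8 and 14.8 CPM in stimulated WT, 26.6 ± 0.399 CPM (SD, n = 3) in clone 1 and 16.9 ± 0.863 in clone 2, with log2 fold changes of 0.82 ± 0.09 (adjusted p = 6.20e-09, edgeR) and 0.17 ± 0.10 (0.135). The 15 FOXM1 targets listed act in the cell cycle. Of them, 4 were called higher in stimulated clone 1 (Birc5, Ccnb1, Cdc25b and Top2a) and 1 in stimulated clone 2 (Cenpf). None was called lower, beside the stimulated shares of all genes given for the FOXO targets, and the median log2 fold changes were 0.78 and 0.28. In uninduced cells 1 was higher in clone 1 (6.32% of all genes) and 4 in clone 2 (5.54%). Stimulation raised 8 of the 15 in clone 1 (5.95% of all genes), 1 in WT (6.25%) and 0 in clone 2 (6.46%) past both thresholds by edgeR. The difference in response itself passed them for 1 target in clone 1 minus WT (Cdc25b, higher) and 2 in clone 2 minus WT (Cenpa and Kif20a, lower), and for 0 in the other direction in either case. Of all tested genes, 8.81% passed them in either direction for clone 1 minus WT and 7.85% for clone 2 minus WT.

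Foxf1, Foxf2, Foxl1 and Foxd2 are known for links with Hedgehog signalling in mesenchyme, and 6 of 8 genes of that pathway were tested. In stimulated clone 1 1 was higher and 3 were lower than in WT (median -0.71), beside 9.42% and 9.6% of all genes, and in stimulated clone 2 1 was higher and 1 lower (median -0.01), beside 7.95% and 8.94%. Gli2, a transcription factor of the pathway, was lower by -4.05 ± 0.24 and -4.17 ± 0.25 on the log2 scale in clones 1 and 2 (edgeR, adjusted p = 3.35e-15 and 1.13e-14), from 11.3 CPM in WT to 0.672 and 0.612 CPM. Ptch1, the Hedgehog receptor and a target of the pathway, was higher by 1.20 ± 0.10 and 1.06 ± 0.11. Gli1 and Gli3, also transcription factors of the pathway, were called lower in stimulated clone 1 and were not called in stimulated clone 2. In uninduced cells Ptch1 was lower, at -0.44 ± 0.10 (adjusted p = 0.000374, edgeR) in clone 1 and -1.28 ± 0.10 (4.81e-12) in clone 2. No gene of the list was called higher there, Gli2 was called lower in clone 1, and Gli2 and Ptch1 were in clone 2. Of all tested genes, 6.32% were called higher and 8.73% lower in uninduced clone 1, and 5.54% and 9.56% in uninduced clone 2. A short list of 4 forkhead genes known as inhibitors of adipogenesis had 3 tested members. Foxc2 was called lower in uninduced clone 1, none was called in uninduced clone 2 or stimulated clone 1, and Foxo3 was called higher in stimulated clone 2. The shares of all genes in these comparisons are those given for the Hedgehog pathway.

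Neighbours within 100 kb were followed at 3 loci. Around Foxs1, 5 genes were tested. Dusp15, a phosphatase gene 18.5 kb from the Foxs1 start, was also higher in both clones, from 1.05 ± 0.225 CPM (SD, n = 3) in stimulated WT to 8.77 ± 1.75 in clone 1 and 6.75 ± 1.10 in clone 2, log2 fold changes of 3.06 ± 0.26 (adjusted p = 2.60e-11, edgeR) and 2.68 ± 0.27 (9.46e-10). In uninduced cells they were 3.25 ± 0.28 and 2.59 ± 0.28. Mylk2, a myosin light chain kinase gene 21.9 kb away on the other side, was higher in clone 2 alone, by 4.41 ± 0.50 (9.71e-09) stimulated and 4.03 ± 0.56 uninduced, with 0.39 ± 0.63 (0.619) in stimulated clone 1. Tpx2 and Pdrg1, 85.2 and 82.2 kb away, were at 0.98 ± 0.09 and 0.39 ± 0.06 in stimulated clone 1 and at 0.52 ± 0.09 and 0.14 ± 0.06 in stimulated clone 2. Tpx2 passed both thresholds in uninduced clone 2 (1.17 ± 0.09).

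On chromosome 8, Foxf1, Foxc2 and Foxl1 lie within 46.3 kb of each other with Mthfsd between them. In stimulated cells they differed from WT in different directions, Foxf1 being lower and Foxl1 higher, while Mthfsd was at 0.14 ± 0.11 and -0.08 ± 0.12. On chromosome 13, Foxq1, Foxf2 and Foxc1 span 256 kb. There Foxq1 was lower, Foxf2 higher and Foxc1 within 0.29 of WT on the log2 scale. The gene 1700018A04Rik starts 24 bases from Foxf2 on the opposite strand and was higher too, by 2.01 ± 0.34 (adjusted p = 9.16e-06, edgeR) in stimulated clone 1 and 1.26 ± 0.35 (0.00295) in stimulated clone 2. Gm11377, between Foxq1 and Foxf2, was called higher in stimulated clone 1 (2.09 ± 0.59) and was at 1.39 ± 0.62 in clone 2 (adjusted p = 0.0574). Gmds, beyond Foxc1, was at 1.24 ± 0.08 and 0.93 ± 0.08. Of Foxf2 exonic bases, 4.15% lie under another annotated gene, and of Foxf1 4.06%.

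**Figure D5:**
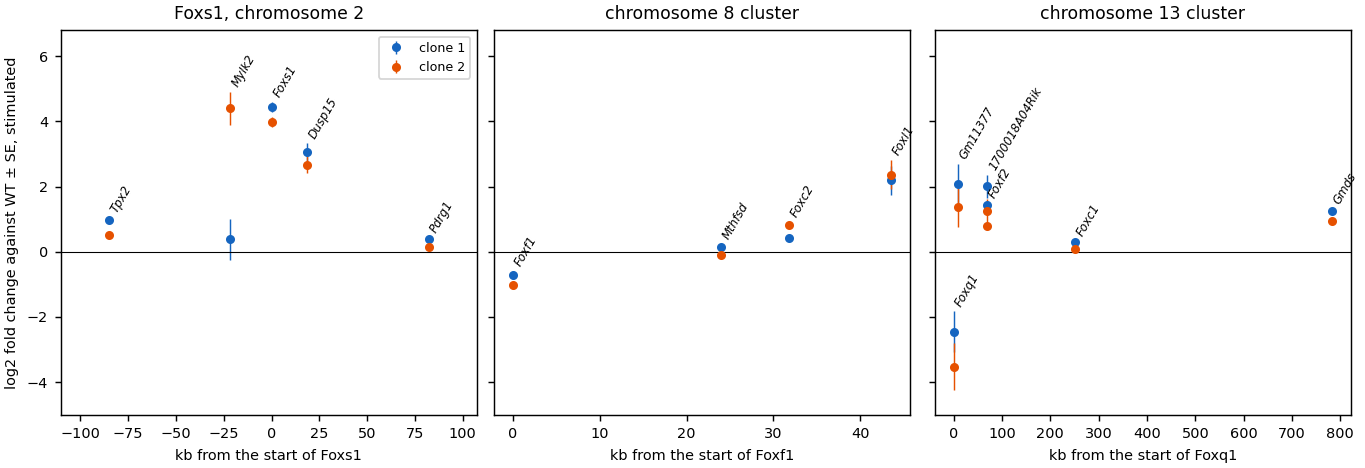
Log2 fold change against WT with its SE in stimulated clone 1 (blue) and clone 2 (orange) for the tested genes within 100 kb of Foxs1, of the chromosome 8 cluster and of the chromosome 13 cluster, plotted by the distance of each gene's start from that of Foxs1, Foxf1 or Foxq1 in kb. Dusp15 lies with Foxs1 above a log2 fold change of 2, Foxf1 and Foxl1 lie on opposite sides of 0, and so do Foxq1 and Foxf2.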

How the data were processed

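RNA was poly(A)-selected and sequenced on an Illumina instrument with paired reads of 150 bp. The authors deposited whole-number counts per gene with gene coordinates and lengths, mapped with HISAT2 to mm10 (GRCm38). How reads were assigned to genes (program, annotation release, use of strand) is not given in the sources used here. Of the 44 members, 41 have coordinates equal to GENCODE M21.

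Counts were fitted in R 4.3.3 with edgeR 4.0.16: filterByExpr by group (minimum count 10, 14317 genes), TMM, robust glmQLFit with 6 group means over 18 libraries and glmQLFTest, Benjamini-Hochberg over all tested genes. SE is the absolute log2 fold change over the root of F. CPM use TMM-scaled library sizes. The study itself used DESeq2, which here (version 1.42.0) was an alternative. Coding sequences were aligned locally with Biopython 1.88 (match 1, mismatch -1, gap open -5, extension -1). The model was tested on simulated data. Library totals of 15576685 to 42005596 counts set the precision, a group with no count was given a floor of 3 counts, and intervals and floors cover counting error only.

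The members, the lists (FOXO targets, AKT pathway, FOXM1 targets, Hedgehog pathway, forkhead inhibitors of adipogenesis, and 6 marker lists) and the tests were chosen with earlier results of these data known. Members passing the filter are named, except 1 that enters the counts and is not reported here. Values per library are given for Foxs1, for members called in both clones in 1 direction, and for members whose response differed in both clones. Values per library of Foxf2 and Foxp2 were added after they were seen. Other genes given with values are neighbours within 100 kb or at most 4 per list, called in both stimulated clones with the largest smaller change. Further list genes are named only by their call or their lack of counts. Alternatives were DESeq2, its size factors, other filters, glmTreat, no fold threshold, fits of the compared groups alone, a replicate block and leaving out each library.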

Additional observations from a re-analysis of the deposited data

Results flagged for a closer look

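The response to stimulation differed between a clone and WT, by the test of the difference itself (edgeR) and by more than 1 on the log2 scale, for 3 forkhead genes. These were 2 of 24 members in clone 1, beside 8.81% of all genes, and 3 of 24 in clone 2, beside 7.85%. On the log2 scale, clone minus WT, the difference in response was 1.76 in clone 1 and 1.54 in clone 2 for Foxc2. It was 2.26 in clone 1 and 3.20 in clone 2 for Foxl1, and 1.05 in clone 2 for Foxf1. The Foxc2 groups of 3 libraries lay apart in uninduced and in stimulated cells, whereas Foxl1 rested on 31 to 147 counts per group. The clones differed from each other in Foxp2, by a fitted log2 difference of 7.45 in uninduced and 7.24 in stimulated cells, clone 1 minus clone 2. Because clone 2 had no Foxp2 count these fitted values depend on the prior count, and the bounds of 28.5-fold and 14.7-fold are the ones to read. Foxp2 was 1 of 24 members called between the clones, beside 8.67% of all genes in uninduced and 9.98% in stimulated cells.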

How the results depend on the processing

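The number of members called stayed within 1.5 times its value in all 11 comparisons under DESeq2, DESeq2 size factors in edgeR, either other filter, fits of the compared groups alone and the replicate block. Dropping the fold threshold raised the counts, given here in the order of the text. They were 18, 21, 21 and 17 for clones 1 and 2 against WT, uninduced and then stimulated. For the responses in WT, clone 1 and clone 2 they were 18, 21 and 22. They were 14 and 12 for the differences in response, and 11 and 12 between the clones. For the comparisons with WT and the responses, the share of all tested genes under this rule is not given here. Those counts are therefore not read as a trait of the family. For the differences in response and between the clones, the shares of all genes by direction are given in the Results. Testing against a log2 fold change of 1 (glmTreat) lowered the response counts to 3 in WT and 5 in clone 1 and the difference for clone 1 to 1. It ended 12 member calls: Foxo6 in uninduced clone 2, Foxd2 in both stimulated clones and in the WT response, Foxf1 in stimulated clone 2 and in the clone 2 difference, Foxo1 in the WT response, Foxs1, Foxq1 and Foxl1 in the clone 1 response, Foxq1 in the clone 2 response and Foxl1 in the clone 1 difference. Fitting only the compared groups ended that of Foxq1 in uninduced clone 2 (adjusted p = 0.0535, edgeR). Leaving out 1 library gave 4 to 5, 5 to 6, 5 to 5 and 6 to 7 members against WT, 5 to 6, 7 to 8 and 7 to 8 for responses, 2 to 3 and 2 to 3 for differences and 1 to 1 between clones, and no called log2 fold change of a member changed sign. The Foxf1 difference for clone 2 was 0.98 without WT stimulated replicate 3 and 0.97 without clone 2 uninduced replicate 3. With no filter beyond 1 count, Foxl2 was called lower in both clones under both treatments, and the Foxf1 difference for clone 2 went to 0.98. Replicate numbers shared only a number: over 45 pairs of same-numbered libraries the correlation of deviations from the group means was -0.04 to 0.05, 4 of 18 libraries correlated best with their own number, and the replicate block left the counts of called members at 4, 6, 5 and 7 against WT. Of the list counts, the fold threshold, glmTreat and single libraries moved 69, 23 and 40, the replicate block 0 and the other settings 1 to 6 each.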
